A study of Bos indicus with 6 samples.

Results

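The genes described here are markers of endothelial cells, the cells that line blood and lymph vessels, in the isthmus of the bovine oviduct. They were taken by symbol from a list of 10 (PECAM1, CDH5, VWF, TIE1, ESAM, EGFL7, ERG, ENG, PLVAP and CD34), and 9 of the 10 stood on a row of the deposited table of 24616 genes. PECAM1 was not found under that symbol and was not analysed here.

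The isthmus was taken from 6 multiparous Nelore cows, with 1 RNA-seq library per cow. Cows 617, 79 and 527 belonged to the LF/LCL group, in which a larger follicle ovulated and left a larger corpus luteum, and cows 856, 489215 and 97 belonged to the SF/SCL group, with a smaller follicle and a smaller corpus luteum. In both groups the cows were pre-synchronized with prostaglandin F2α analog and GnRH agonist, received an intravaginal progesterone device together with estradiol benzoate, were given prostaglandin at device removal and again some hours later, and ovulated after GnRH. The LF/LCL cows alone had a further prostaglandin injection when the device was placed, and their device was removed 42 h before GnRH, against 30 h in the SF/SCL group. Tissue of the full oviduct wall, on the side of the corpus luteum, was collected on day 4. The cows sequenced were the extremes of their groups, since the study ranked its animals by follicle, corpus luteum and hormone values and chose from the top of LF/LCL and the bottom of SF/SCL.

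Endothelial cells are held together by adherens and tight junctions, and these junctions set what passes from blood into tissue. Their identity rests on transcription factors of the ETS family, and their growth and quiescence on receptors for angiogenic factors and for ligands of the TGF-β family. In the oviduct the vessels run in the stroma of the mucosal folds, in the muscle coat and below the serosa, and they supply the fluid from which part of the oviductal secretion is formed.

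Values are normalized counts, that is, read counts divided by the size factor of each library. The libraries held from 23899117 to 34193164 reads in genes, with a median of 27155932. Every endothelial marker was counted in every library, with from 100 reads for EGFL7 in cow 856 to 5616 reads for VWF in cow 79. The 95% Poisson interval of a value extended by 2.62% of it at the highest count and by 20.1% at the lowest, for counting error only. Cow 489215 stood apart from the rest, since 36.7% of the 15387 genes tested had their highest value in this cow and 35.7% their lowest. The comparisons of the markers and of the main gene lists are therefore given with and without it. Levels were compared between cows and not between genes, because transcript lengths were not used here.

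The label of the genes was checked against markers of blood cells, since VWF is also made by megakaryocytes and CD34 and ENG occur on some blood and stromal cells. The platelet genes GP1BA, GP9, PF4, PPBP, GP6 and TREML1 had from 0 to 2.17 normalized counts in any cow, and the haemoglobin genes HBB, HBA and HBM from 0 to 3.25. These genes were thus at or near 0. Other genes of the same lists were not, since ITGA2B, an integrin of platelets, had 116 to 283 normalized counts, and AHSP, the chaperone of alpha haemoglobin, had 3.51 to 18.6. PTPRC, the common leukocyte antigen, had 525 to 1064. Leukocyte genes as a list (12 of 12 found, 11 tested) summed to 2519 to 4383 normalized counts in LF/LCL and 2960 to 3622 in SF/SCL. In a tissue sample, fewer endothelial cells and less RNA per endothelial cell cannot be told apart.

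All 9 genes were lower in SF/SCL cows 856 and 97 than in every LF/LCL cow. Among all genes tested, 34.7% were below the LF/LCL range in cow 856, 34.0% in cow 97 and 25.0% in both. In cow 489215 the genes parted: CDH5, ENG and CD34 were below every LF/LCL cow, VWF and TIE1 lay within the LF/LCL range, and ESAM, EGFL7, ERG and PLVAP were above every LF/LCL cow. Cow 489215 had 40.9% of all genes tested below and 42.6% above the LF/LCL range, so that 3 of 9 below and 4 of 9 above lay close to those shares. The 4 genes above it there and below it in cows 856 and 97 compare with 12.8% of all genes.

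**Figure D1:**
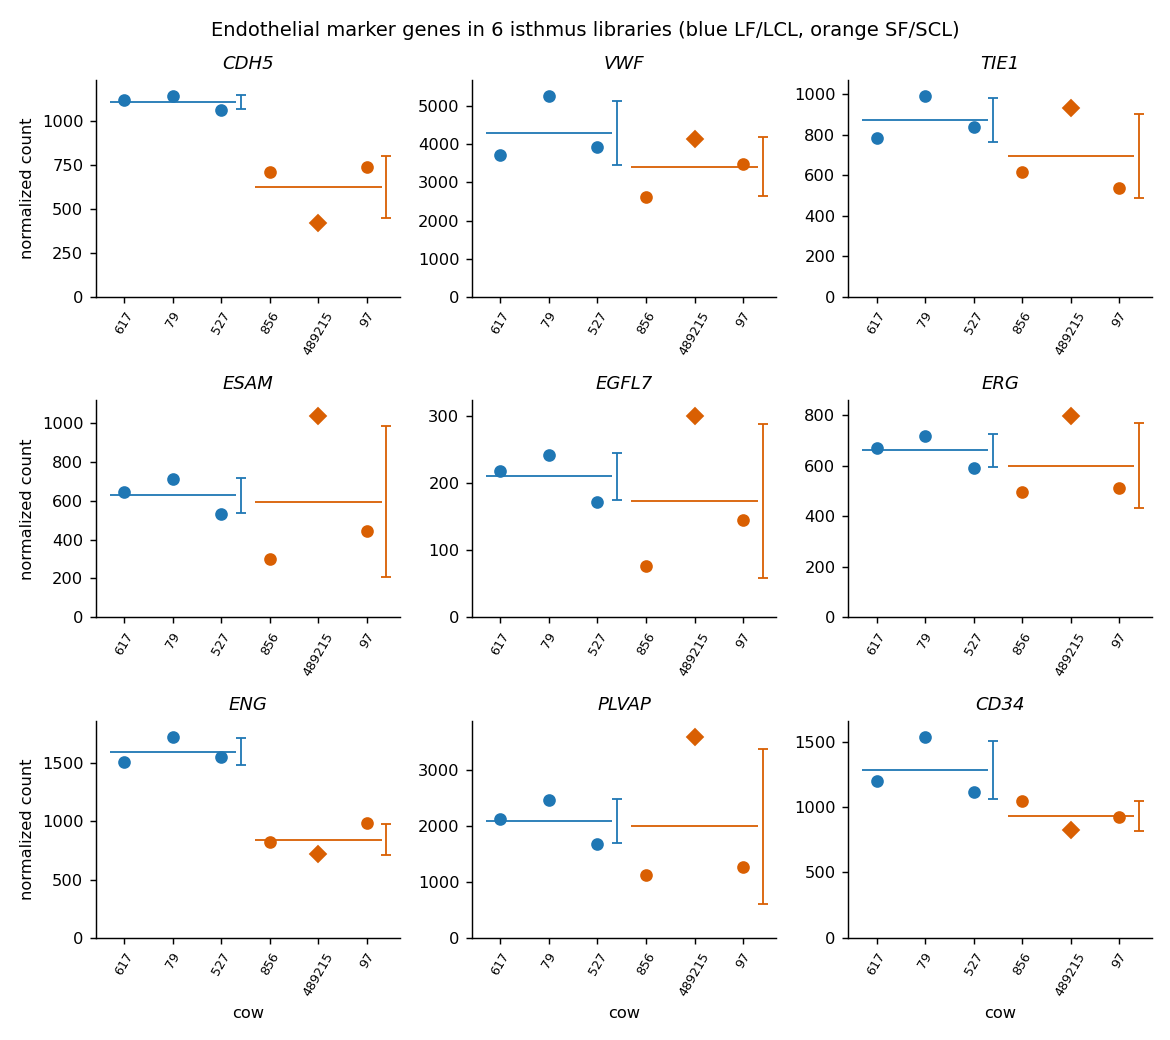
Normalized count of 9 endothelial marker genes in each isthmus library, a panel per gene with an axis from 0, by cow. Blue circles are LF/LCL cows and orange symbols SF/SCL cows, with cow 489215 as a diamond; horizontal lines are group means and the bars beside them 1 SD (n = 3). The circles of cows 856 and 97 sit below all 3 blue circles in every panel, and the diamond of cow 489215 is the lowest point for CDH5, ENG and CD34 and the highest for ESAM, EGFL7, ERG and PLVAP.

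With all 6 libraries, 0 of the 9 genes passed the Benjamini-Hochberg adjusted threshold of 0.05 between the groups in limma, as did 0% of the 15387 genes tested. Unadjusted p-values under 0.05 were found for CDH5 and ENG, 2 of 9, both lower in SF/SCL, against 4.48% of all genes in that direction. The edgeR quasi-likelihood test on the recovered reads also called 0 of the 9 (and 0% of all genes, of which 8.49% had an unadjusted p-value under 0.05), and DESeq2 called ENG alone (2.66% of all genes, 1.34% lower in SF/SCL). The log2 fold changes of SF/SCL over LF/LCL were below 0 for 9 of 9 genes, with a median of -0.36, whereas 51.4% of all genes tested were below 0 and their median was -0.02. For CDH5, ENG and CD34 the values of the groups did not overlap, which was so for 8.60% of all genes in that direction, and 0 of 9 were higher in SF/SCL without overlap (9.51% of all genes). Without cow 489215, 9 of the 9 genes had groups free of overlap, which restates that cows 856 and 97 were both below LF/LCL (25.0% of all genes), the median was -0.61, and 4 of the 9 (CDH5, ENG, TIE1 and PLVAP) had an adjusted p-value under 0.05 in limma, against 7.92% of all genes called lower in SF/SCL.

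CDH5 (ENSBTAG00000007421) encodes VE-cadherin, the adhesion protein of endothelial adherens junctions. Its normalized count was 1119 in cow 617, 1145 in cow 79 and 1065 in cow 527 of LF/LCL. The SF/SCL cows had 709 in cow 856, 422 in cow 489215 and 742 in cow 97. The LF/LCL cows lay close together, with a coefficient of variation of 3.66%, and every SF/SCL cow was lower, with cow 489215 the lowest. Mean levels were 1110 ± 40.6 in LF/LCL and 625 ± 176 in SF/SCL (SD, n = 3), and the log2 fold change was -0.87 (standard error 0.27, unadjusted p = 0.0149, adjusted p = 0.437 from limma). Without cow 489215 it was -0.61 (standard error 0.10, adjusted p = 0.0119 from limma).

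ESAM (ENSBTAG00000001004), an immunoglobulin-like adhesion molecule of endothelial tight junctions and platelets, had 644 in cow 617, 710 in cow 79 and 531 in cow 527. The SF/SCL counts were 302 in cow 856, 1033 in cow 489215 and 445 in cow 97. The SF/SCL group thus spanned the whole LF/LCL range, with cow 489215 above it and the other SF/SCL cows below it. The log2 fold change was -0.27, with a 95% interval from -1.36 to 0.83 (adjusted p = 0.911 from limma). It was -0.76 without cow 489215 (adjusted p = 0.0530 from limma) and 0.12 without cow 856, so that its direction rested on that library. The junction genes CDH5 and ESAM, lower together in cows 856 and 97, were at opposite ends in cow 489215.

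ENG (ENSBTAG00000008997) encodes endoglin, a co-receptor for ligands of the TGF-β family on endothelium. LF/LCL cows 617, 79 and 527 had normalized counts of 1506, 1727 and 1556. SF/SCL cows 856, 489215 and 97 had 820, 723 and 984. The highest SF/SCL value was well below the lowest LF/LCL value. Mean levels were 1597 ± 116 in LF/LCL and 842 ± 132 in SF/SCL (SD, n = 3), and the log2 fold change was -0.93 (standard error 0.19, unadjusted p = 0.00225, adjusted p = 0.367 from limma). It was the only marker past the adjusted threshold in DESeq2 (log2 fold change -0.92, adjusted p = 0.00329), and without cow 489215 it also passed in limma (-0.83, standard error 0.12, adjusted p = 0.00856).

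TIE1 (ENSBTAG00000003777), an orphan receptor tyrosine kinase that modulates angiopoietin signalling, had 785, 991 and 838 in LF/LCL cows 617, 79 and 527. In SF/SCL it had 618 in cow 856, 929 in cow 489215 and 535 in cow 97. Cow 489215 lay inside the LF/LCL range and the other SF/SCL cows below it. The log2 fold change was -0.36 (95% interval -0.995 to 0.27, adjusted p = 0.798 from limma). Without cow 489215 it was -0.59 (standard error 0.14, adjusted p = 0.0370 from limma).

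ERG (ENSBTAG00000011001), an ETS transcription factor that maintains the expression of junction genes in endothelium, had 671, 718 and 591 in LF/LCL cows 617, 79 and 527. The SF/SCL cows 856, 489215 and 97 had 494, 795 and 510. Its SF/SCL values thus lay on both sides of the LF/LCL range. Of the 9 log2 fold changes in limma, that of ERG was nearest to 0, at -0.17 (95% interval -0.78 to 0.44, adjusted p = 0.902 from limma). It was -0.39 without cow 489215 (adjusted p = 0.0907 from limma). In DESeq2 and edgeR, PLVAP (-0.068 and -0.10) and ESAM (-0.086 and -0.12) were nearer to 0 than ERG (-0.14 and -0.17).

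VWF and EGFL7 encode secreted proteins. VWF (ENSBTAG00000012265), the von Willebrand factor that tethers platelets and is stored in endothelial granules, had 3723, 5271 and 3921 in LF/LCL cows 617, 79 and 527. SF/SCL cows 856, 489215 and 97 had 2608, 4150 and 3483. Cow 79 was the highest and cow 856 the lowest, and the groups overlapped through cow 489215. The log2 fold change was -0.34 (95% interval -0.92 to 0.24, adjusted p = 0.787 from limma) and -0.50 without cow 489215 (adjusted p = 0.121 from limma).

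EGFL7 (ENSBTAG00000030278), a matrix-bound factor of sprouting vessels whose gene also hosts a microRNA, was the marker with the fewest reads. Its normalized count was 218, 241 and 172 in LF/LCL cows 617, 79 and 527, and 76.0, 300 and 145 in SF/SCL cows 856, 489215 and 97. The SF/SCL values had a coefficient of variation of 65.9%, against 16.7% in LF/LCL. The log2 fold change was -0.48 with a 95% interval from -1.72 to 0.76 (adjusted p = 0.868 from limma). It was -0.98 without cow 489215 (adjusted p = 0.0860 from limma) and 0.0021 without cow 856, in which the 100 reads had a 95% Poisson interval from 81.4 to 122 reads.

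PLVAP (ENSBTAG00000005434) forms the diaphragms of fenestrae and caveolae, and CD34 (ENSBTAG00000010562) is a sialomucin of the luminal surface of small vessels that is also found on stromal and haematopoietic progenitor cells. PLVAP had 2112, 2462 and 1666 in LF/LCL cows 617, 79 and 527, and 1117, 3585 and 1265 in SF/SCL cows 856, 489215 and 97. It had the widest spread of the 9 genes in SF/SCL, with a coefficient of variation of 69.6%, and its value in cow 489215 was 3.01 times the mean of the other SF/SCL cows. The log2 fold change was -0.26 (95% interval -1.37 to 0.85, adjusted p = 0.914 from limma), -0.79 without cow 489215 (standard error 0.17, adjusted p = 0.0267 from limma) and 0.052 without cow 856. CD34 had 1202, 1537 and 1114 in LF/LCL cows 617, 79 and 527, and 1044, 821 and 926 in SF/SCL cows 856, 489215 and 97. All SF/SCL values of CD34 were below the LF/LCL values, by a narrow margin in cow 856. Its log2 fold change was -0.46 (standard error 0.21, unadjusted p = 0.0671, adjusted p = 0.622 from limma) and -0.37 without cow 489215 (adjusted p = 0.157 from limma).

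**Figure D2:**
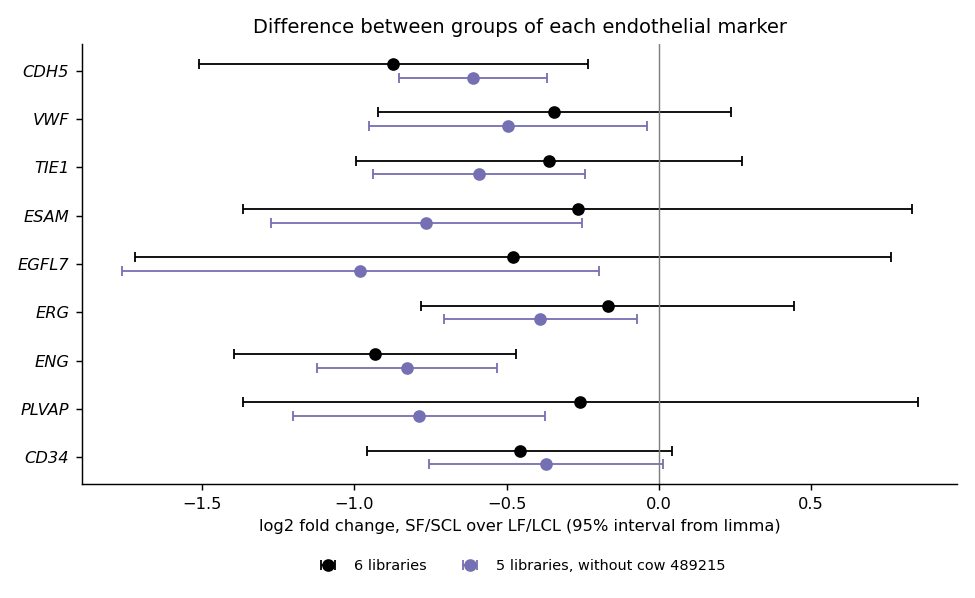
Log2 fold change of SF/SCL over LF/LCL for each endothelial marker with its 95% interval from limma, from all 6 libraries (black) and from 5 libraries without cow 489215 (purple). The black intervals exclude 0 for CDH5 and ENG alone (as for 4.48% of all genes lower and 4.19% higher in SF/SCL). Without cow 489215 the intervals, which are not adjusted for the number of genes, exclude 0 for all but CD34. The share of all genes with such an interval in the 5 libraries was not computed, and cows 856 and 97 were both below LF/LCL for 25.0% of all genes.

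Measured as the mean of cows 856 and 97 against the LF/LCL mean, the normalized counts were lower by 23.3% for CD34, 23.9% for ERG, 29.3% for VWF, 33.8% for TIE1, 34.6% for CDH5, 40.5% for ESAM, 42.7% for PLVAP, 43.5% for ENG and 47.4% for EGFL7. As a share of all reads in genes, the 9 markers together held 446, 550 and 437 reads per 1000000 in LF/LCL cows 617, 79 and 527 (95% Wilson intervals 438 to 454, 542 to 559 and 430 to 445). The SF/SCL cows 856, 489215 and 97 had 300, 376 and 349 reads per 1000000 (intervals 294 to 306, 369 to 384 and 341 to 356). These intervals cover counting error only and not the spread between cows. On this scale all SF/SCL cows were below all LF/LCL cows, as were 11.0% of all genes tested when taken singly. The summed normalized counts of cow 489215, 12758, lay within the LF/LCL range of 11455 to 14803. Scaled by the library total, values of cow 489215 were 0.81 times the deposited ones, and those of the other cows 1.03 to 1.07 times. On the library total, CDH5, VWF, TIE1, ENG and CD34 were below the LF/LCL range in cow 489215 (53.9% of all genes tested were) and ESAM and PLVAP above it (27.3% were), while the log2 fold changes of all 9 genes stayed below 0 (median -0.45, and -0.11 over all genes) and 0 of 9 passed the adjusted threshold.

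To compare the genes with each other free of any scaling of the libraries, each was set against the geometric mean of all 9 in the same library. In the 5 cows other than 489215, these log2 ratios varied by 0.24 for PLVAP to 0.78 for EGFL7, with a median range of 0.40. In cow 489215, 7 of the 9 genes were outside the range of the other 5 cows. The share of all genes for such ratios was not computed. On the deposited values, 36.7% of all genes tested were highest and 35.7% lowest in this cow. Each gene is part of the mean it is set against, so ratios above the mean go with others below it. CDH5 lay 1.32 below the mean of the others on the log2 scale, ENG 0.98 below and CD34 0.65 below, whereas PLVAP lay 0.95 above it, ESAM 0.86 above and EGFL7 0.74 above. VWF and TIE1 stayed inside the range of the others. The ratio of PLVAP to CDH5 was 1.56 to 2.15 in the 5 other cows and 8.50 in cow 489215, and the ratio of ESAM to CDH5 was 0.43 to 0.62 and 2.45.

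Between the groups, 2 of the 9 genes had ratios to the geometric mean without overlap. ENG had 0.54 to 0.73 in LF/LCL and -0.44 to 0.45 in SF/SCL, a difference of -0.47 (exact permutation test, two-sided, p = 0.1, the smallest possible with 3 against 3 cows). Among all genes tested, set against the same mean, 1.35% were lower in SF/SCL without overlap. ERG had -0.73 to -0.60 in LF/LCL and -0.50 to -0.31 in SF/SCL, a difference of 0.29 (exact permutation test, p = 0.1), where 31.9% of all genes were higher without overlap. For the other 7 genes the exact permutation p-values were from 0.4 to 1.

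**Figure D3:**
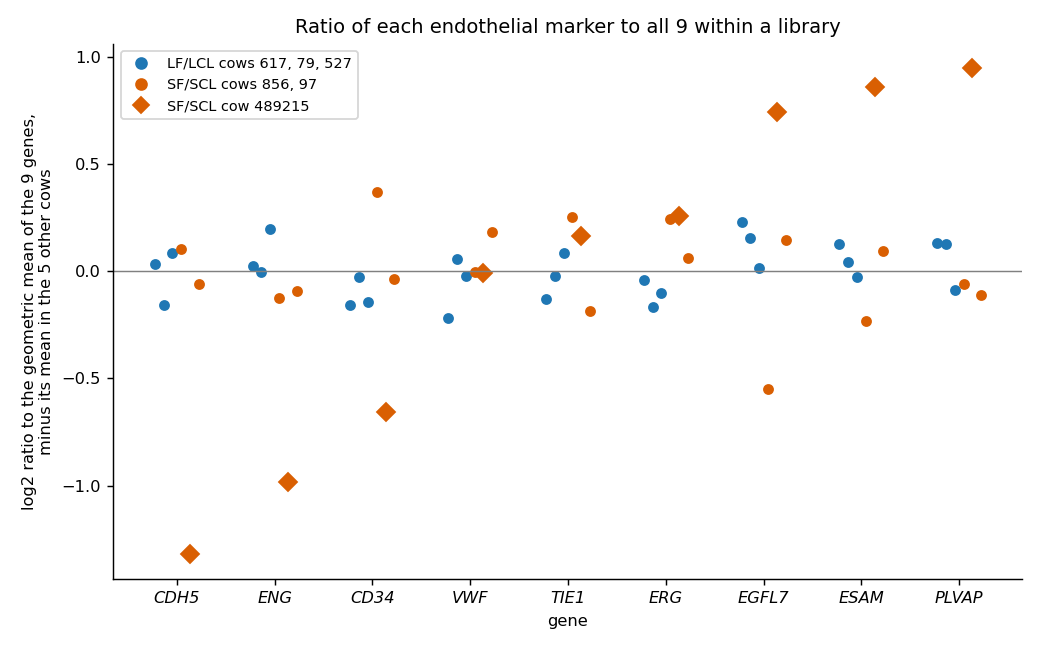
Log2 ratio of each marker to the geometric mean of the 9 markers in the same library, minus its mean over the 5 cows other than 489215, by gene; circles are those cows (blue LF/LCL, orange SF/SCL) and the orange diamond is cow 489215. The circles of a gene span 0.24 to 0.78, the most for EGFL7, while the diamond runs from -1.32 for CDH5 to 0.95 for PLVAP.

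A list of 33 other genes of vascular endothelium was examined in the same way, of which 32 were found and 31 passed the filter on low values. In cows 856 and 97 alike, 21 of the 31 were below every LF/LCL cow, against 25.0% of all genes tested. In cow 489215, 10 of the 31 were below the LF/LCL range (40.9% of all genes were) and 15 above it (42.6% were), so that both lay near those shares. The median log2 fold change of the list was -0.37 with 6 libraries, with 26 of 31 below 0, and -0.63 without cow 489215, beside medians of -0.02 and -0.00092 over all genes. An unadjusted p-value under 0.05 was found for 3 genes lower in SF/SCL (4.48% of all genes) and for 2 higher (4.19% of all genes), with 0 past the adjusted threshold in limma. Without cow 489215, 12 were called lower (7.92% of all genes) and 2 higher (10.3% of all genes).

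PROCR, the endothelial receptor for protein C, had the largest fold change of these, with 322, 447 and 306 normalized counts in LF/LCL cows 617, 79 and 527 and 127, 218 and 143 in SF/SCL cows 856, 489215 and 97. Its log2 fold change was -1.15 (standard error 0.32, unadjusted p = 0.00939 from limma). MYCT1, a membrane protein of endothelium, followed with 253, 266 and 235 against 138, 112 and 115, a log2 fold change of -1.05 (standard error 0.26). Both were lower in each SF/SCL cow than in any LF/LCL cow. FLI1, an ETS factor, was the other gene lower at an unadjusted p-value under 0.05 (log2 fold change -0.69), and it is named after its values were seen. With 6 libraries, 2 genes were higher in SF/SCL at an unadjusted p-value under 0.05, likewise named after their values were seen. They were S1PR1, the receptor for sphingosine 1-phosphate (3157 to 4169 in LF/LCL and 4861 to 6669 in SF/SCL), and SOX17 (2025 to 2800 and 3069 to 3648). SOX17 is a transcription factor of arterial endothelium that is also made by oviductal epithelium, and it was not called without cow 489215 (adjusted p = 0.0807 from limma). ESM1, a secreted proteoglycan of sprouting endothelium, did not pass the filter, its SD being above its mean: it had 33.4 to 92.1 normalized counts in LF/LCL and 55.9 in cow 489215, but 2140 in cow 856 and 1848 in cow 97.

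Of 8 listed genes of lymphatic endothelium, 7 were found and 6 tested, and 1 of the 6, the chemokine CCL21, was below every LF/LCL cow in both cows 856 and 97 (25.0% of all genes were). In cow 489215, however, 5 of the 6 were below the LF/LCL range (40.9% of all genes were). FLT4, the receptor for VEGF-C, had 187, 411 and 416 normalized counts in LF/LCL, 241 and 209 in cows 856 and 97, and 30.6 in cow 489215. RELN, a secreted glycoprotein of lymphatic vessels, had 539 to 1358 in LF/LCL, 721 and 719 in cows 856 and 97, and 134 in cow 489215. The median log2 fold change of -1.07 for this list was -0.24 without cow 489215. Among the adhesion molecules of inflamed endothelium, SELE was near 0 (0 to 3.51 normalized counts), VCAM1 stood on a pair of rows with log2 fold changes of -0.27 and -0.67, and ICAM1 had 394 to 556 in LF/LCL and 164 to 518 in SF/SCL. None of these adhesion molecules passed with 6 libraries, with 0 of the 4 rows tested at an unadjusted p-value under 0.05. Without cow 489215 the median of the 4 rows moved from -0.37 to -0.63, and 1 row of VCAM1 (ENSBTAG00000037539) was called lower, against 7.92% of all genes. The log2 fold change of that row was -0.97 (adjusted p = 0.0410 from limma).

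Among other cell types of the oviduct wall, smooth muscle genes lay most like the endothelial markers in each SF/SCL cow, and fibroblast and mural genes did so in part. The part of these cell types in the result was not tested. Smooth muscle genes (10 of 12 found, 10 tested) were below every LF/LCL cow in 10 of 10 in cows 856 and 97 (34.7% and 34.0% of all genes were), and in cow 489215 in 4 of 10 (40.9%), with 5 of 10 above (42.6%). Their summed level was 825769 to 940434 normalized counts in LF/LCL, 386212 in cow 856, 446718 in cow 97 and 1283250 in cow 489215, and 3 of 10 were lower at an unadjusted p-value under 0.05 (4.48% of all genes). Without cow 489215, 8 of 10 were called lower at an adjusted p-value under 0.05 in limma (7.92% of all genes), and their median log2 fold change moved from -0.61 to -0.9998. Fibroblast genes (12 of 12 found and tested) had a summed level of 325331 to 409857 in LF/LCL and 172235 to 237263 in SF/SCL, with 12 of 12 log2 fold changes below 0 (51.4% of all genes), a median of -0.80 and 6 of 12 lower at an unadjusted p-value under 0.05 (4.48% of all genes). Without cow 489215, 8 of 12 were called lower (7.92% of all genes) and the median was -0.94. In cows 856 and 97 alike, 10 of the 12 fibroblast genes were below every LF/LCL cow (25.0% of all genes were). In cow 489215, 5 of the 12 were below (40.9%) and 0 above (42.6%). Pericyte and mural genes (12 of 12 found and tested) summed to 21137 to 23208 in LF/LCL and 13843 to 19840 in SF/SCL, with 8 of 12 below 0 (51.4% of all genes), 3 lower (4.48%) and 1 higher (4.19%) at an unadjusted p-value under 0.05. Without cow 489215, 4 of 12 were called lower (7.92% of all genes) and 1 higher (10.3%), with a median of -0.51 against -0.45. Of these mural genes, 5 of 12 were below every LF/LCL cow in both cows 856 and 97 (25.0% of all genes were). In each of these cows, 3 of 12 were above (36.3% and 34.5%). In cow 489215, 6 of 12 were below (40.9%) and 4 above (42.6%). In these lists SYNPO2 (log2 fold change -0.99) and MYLK (-0.94) had the largest changes for smooth muscle, COL1A1 (-1.14) and PI16 (-1.09) for fibroblasts, and PDGFRB (-1.28) and ABCC9 (-1.20) for mural cells.

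Among epithelial genes, unadjusted p-values under 0.05 with higher values in SF/SCL were found for 5 of 10 secretory and general and 3 of 11 ciliated genes (4.19% of all genes). Without cow 489215, limma called 4 of 10 and 9 of 11 higher (10.3% of all genes), and the medians moved from 0.61 to 0.52 and from 0.52 to 1.05. Secretory and general epithelial genes (11 of 12 found, 10 tested) summed to 32694 to 48418 normalized counts in LF/LCL and to 324421, 384682 and 76221 in SF/SCL cows 856, 97 and 489215, and OVGP1, an oviductal glycoprotein that did not pass the filter, made up most of the sums of cows 856 and 97 (271794 and 325158). Of this list, 8 of the 10 tested had log2 fold changes above 0, such as KRT7 (1.68) and EPCAM (0.85). The listed gene not found by symbol was CDH1, which stands under the name E-CADHERIN (ENSBTAG00000015991) and is outside these counts. It went the other way, with a log2 fold change of -0.81 (standard error 0.15, unadjusted p = 0.00136, adjusted p = 0.367 from limma). Ciliated cell genes (12 of 12 found, 11 tested, PIFO at 0 in every cow) were above every LF/LCL cow in 10 of 11 in both cows 856 and 97 (36.3% and 34.5% of all genes were) and in 3 of 11 in cow 489215 (42.6%), in which 5 of 11 were below (40.9%). The largest log2 fold changes of this list were those of DNAI1 (1.19) and TPPP3 (0.99). Mesothelial genes (7 of 7 found, 1 tested) summed to 2538 to 3421 in LF/LCL and to 26294, 26932 and 3528 in cows 856, 97 and 489215. MSLN (17590 and 18098) and WT1 (8611 and 7984), which did not pass the filter, made up most of the sums of cows 856 and 97. The list did not move as one, since LRRN4 (175 to 412 in LF/LCL, 3.80 to 16.3 in SF/SCL) and BNC1 were lower in every SF/SCL cow. Among the remaining lists, the largest log2 fold changes were -1.34 for ITGAM and -1.01 for CD4 of the leukocytes, and the single genes tested of the platelet, erythrocyte and mesothelial lists had -0.35 (ITGA2B), 0.22 (AHSP, -0.29 without cow 489215) and -1.97 (BNC1).

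Set against these lists within each library, as a difference of mean log2(value + 1), the endothelial markers were lower relative to secretory and general epithelium in SF/SCL (-2.31 to -2.25) than in LF/LCL (-1.70 to -0.99). Relative to fibroblast genes the ranges overlapped, with -2.83 to -2.55 in SF/SCL and -3.23 to -2.74 in LF/LCL. Relative to smooth muscle genes the groups also overlapped (-5.81 to -5.27 and -5.79 to -5.46), as they did relative to pericyte and mural genes (0.41 to 0.94 and 0.31 to 0.87). Cow 489215, at -2.29 relative to this epithelium, lay between the other SF/SCL cows. Relative to ciliated genes it stood at -0.96, above the LF/LCL cows (-1.50 to -1.14), with cows 856 and 97 below them at -3.06 and -2.85. Against the 31 other vascular genes, the markers were at 0.24 to 0.32 in LF/LCL and at 0.09 to 0.23 in SF/SCL.

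**Figure D4:**
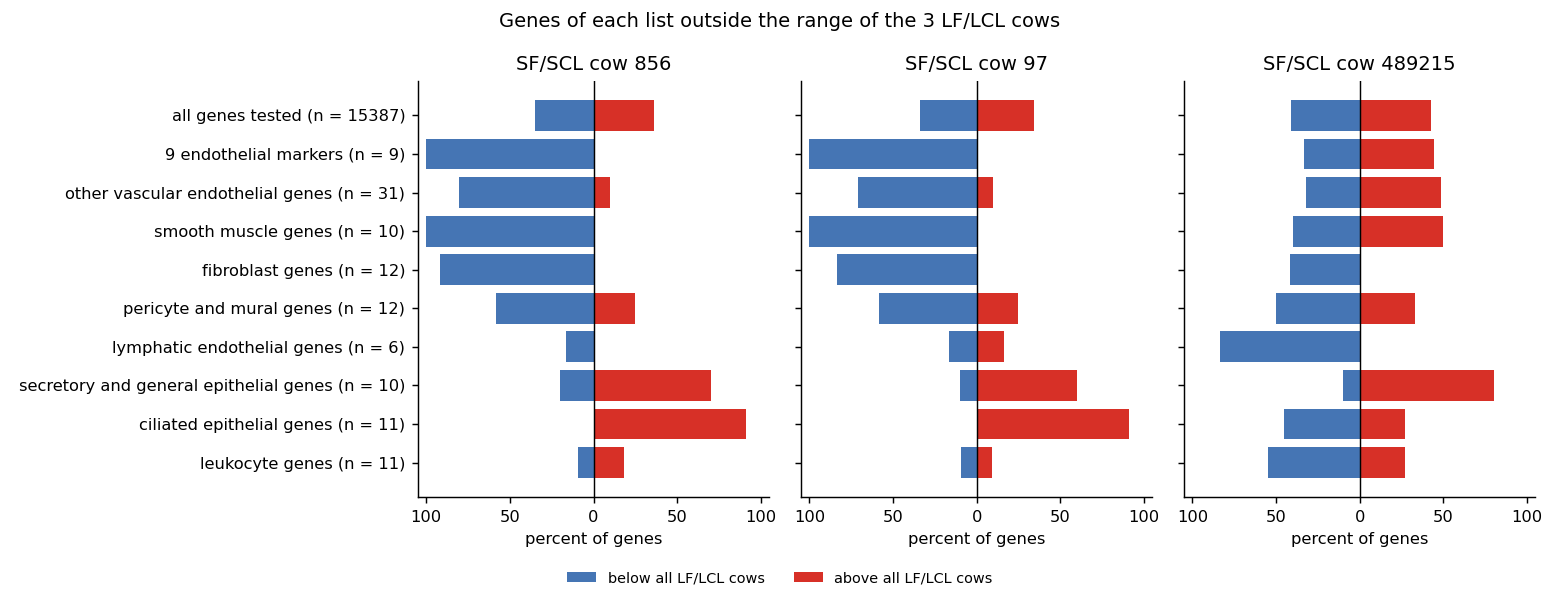
Percent of the tested genes of each list that lay below (blue, to the left) or above (red, to the right) all 3 LF/LCL cows, in each SF/SCL cow; n is the number of genes tested. In cows 856 and 97 the endothelial markers and the smooth muscle genes are 100% below and ciliated genes 90.9% above, whereas cow 489215 has endothelial markers on both sides, 33.3% below and 44.4% above.

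Across the 6 cows, which share the split of cow 489215 from the rest, the median of the 36 pairwise correlations between the 9 markers was 0.65 for Pearson's r and 0.63 for Spearman's rho on log2 values. The lowest was that of CDH5 and PLVAP, with r = -0.26, which was 0.95 without cow 489215. The 10 other genes with a symbol whose pattern was most like the markers, by the median of Pearson's r with the 9 over the 6 cows, were DDX19A (0.93), S100G (0.93), TMED6 (0.92), GLRX (0.92), ILVBL (0.92), FAM159B (0.92), DCLK1 (0.92), FSTL1 (0.92), ACTC1 (0.91) and ODC1 (0.91). Each had an r near 0 or below with at least 1 of the markers, from -0.12 to 0.019. All 10 had their lowest values in cows 856 and 97. For 9 of them, all but ODC1, cow 489215 was the highest of the 6 cows, as it was for ESAM, EGFL7, ERG and PLVAP. S100G, a calcium-binding protein, had 622, 1292 and 642 normalized counts in LF/LCL cows 617, 79 and 527, 80.5 and 140 in cows 856 and 97, and 1659 in cow 489215. ACTC1, an actin of muscle, had 406, 430 and 264 in LF/LCL, 42.5 and 50.9 in cows 856 and 97, and 909 in cow 489215. Of 13980 genes compared, 3.53% had a median r above 0.8.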

How the data were processed

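Polyadenylated isthmus RNA of 6 cows was sequenced as paired ends of 101 bases. After quality filtering (seqyClean), the authors mapped reads to the masked assembly UMD 3.1 (TopHat2 2.0.8, Bowtie2 2.1.0) and counted them by gene in HTSeq, versions as in the submitters' processing notes. Whether counting used strand is not given in the sources used here. The deposited signal values are counts over DESeq 1.12.1 size factors. Within a library, 100% of the 24616 values lay within 0.001 of a multiple of 1 step, which gave back the reads. The design had allowed for such normalized values.

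The 15387 genes whose mean exceeded both 5 and the SD were tested with limma 3.58.1 (trend and robust) in R 4.3.3, on log2(value + 1), which understates changes of low genes. P-values were adjusted over all genes tested by Benjamini-Hochberg, with a threshold of 0.05. Log2 fold changes are SF/SCL over LF/LCL. As alternatives, the recovered reads were tested in edgeR 4.0.16 and in DESeq2 1.42.0. Scripts were tested on simulated data. With 1 library per cow, the spread is that between cows.

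The genes and lists were chosen with earlier results of these data known. Genes were named if they were endothelial markers, among the 2 tested genes of a list with the largest fold change, or among the 10 most alike in pattern. FLI1, S1PR1, SOX17, ICAM2, ESM1, CCL21, SELE, PIFO, OVGP1, E-CADHERIN, MSLN, WT1, LRRN4, PTPRC and the genes of the blood cell check were named after their values were seen. A gene of the platelet list is not reported here. Scaling by the library total was added after seeing the data.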

Additional observations from a re-analysis of the deposited data

How the results depend on the processing

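Of the 135 log2 fold changes of the 9 endothelial markers under alternatives, 3 turned to above 0, all without SF/SCL cow 856: ESAM (0.12), EGFL7 (0.0021) and PLVAP (0.052). Their lowest values with single cows left out were -0.76, -0.98 and -0.79, all without cow 489215. The 81 under other models, scalings, filters and pseudocounts stayed below 0. The number of markers past the adjusted threshold, 0 in limma with 6 libraries, was 1 with DESeq2 and 0 to 4 with single cows left out, with 4 without cow 489215. For the genes of the 12 other lists it was 0, or 15 with DESeq2, where 2.66% of all genes were called. It was 0 to 53 when each cow was left out. The 53 were found without cow 489215, where 7.92% of all genes were called lower and 10.3% higher. The number of markers whose groups did not overlap was 3, or 5 on the library total alone (11.0% of all genes, lower in SF/SCL), and 3 to 9 when each cow was left out. For ratios to the geometric mean it was 2 to 3. The median pairwise r of the markers was 0.49 to 0.90 when each cow was left out, highest without cow 489215. Over all genes, DESeq2 called 409 of 15387, and limma without cow 489215 called 1227 of 15495 lower and 1600 higher. The causes were not tested. No paired analysis was possible because the labels give each cow a number of its own.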
